A study of Mus musculus with 20 samples.

Results

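Peaks of N6-methyladenosine (m6A) named after ribosomal protein genes were followed in 2 sorted populations of mouse thymocytes. They were chosen by name alone, as every peak whose annotated symbol was Rpl, Rps or Rplp with a number, or Rpsa, without the Rps6k kinases and without pseudogenes. That took 83 of 25992 peaks in all, with 42 of 13450 for DP cells and 41 of 12542 for iNKT cells, each population having 1 of the authors' deposited tables. The tables named 46 such genes, 30 for DP cells and 28 for iNKT cells. Of them, 12 were named in both, which is 40.0% of the DP genes and 42.9% of the iNKT genes. The same share over all genes was not counted. RefSeq lists 89 protein-coding mouse genes of this name pattern, 54 with a large-subunit name and 35 with a small-subunit name.

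The Mettl3-deleted cells came from Mettl3fl/flCD4-cre mice, in which a Cre recombinase driven by the Cd4 promoter removes floxed Mettl3, the catalytic subunit of the m6A writer, from the CD4 and CD8 double-positive (DP) stage onward. The WT cells came from C57BL/6 mice, and animals of both genotypes were 6 to 8 weeks old. Invariant natural killer T cells (iNKT), a lineage that branches off from DP thymocytes and sees lipids on CD1d, were sorted as 7AAD-CD1d-Tet+TCRbeta+ cells and gave 12 libraries, 3 m6A and 3 input libraries per genotype. DP thymocytes were sorted as 7AAD-CD1d-Tet-CD4+CD8+ cells and gave 8 libraries, 2 m6A and 2 input libraries per genotype. The labels do not say how many animals went into a library. Nor do they say which cell type was handled by the standard and which by the low-input m6A protocol, so protocol and cell type cannot be told apart.

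Ribosomal proteins fold onto ribosomal RNA in the nucleolus to make the large and small subunits of the ribosome, and cells keep their amounts matched. Their messenger RNAs are short and abundant, and most begin with a C and a run of pyrimidines, the terminal oligopyrimidine (TOP) start, through which the mTOR pathway sets their translation. The m6A antibody also binds m6Am, a mark made by another enzyme on an A beside the cap, so a peak at the very start of a transcript can hold either mark.

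The starts of these genes are shown because many of the peaks below lay in 5' UTRs. Each line gives 10 bases before the annotated start and 20 bases from it, read 5′ to 3′ on the RNA strand from RefSeq promoters of build GRCm38.p6, with runs of at least 5 bases that are C or T in capitals. The start itself is base 11 of each line. Rps4x and Rps15 had a peak reaching to within 50 bases of the start that passed the test described below. Rps15a, Rps10 and Rpl35 had a peak there that did not, and Rps6 had a passing peak further inside the gene.
Rps4x: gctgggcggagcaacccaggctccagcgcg
Rps15: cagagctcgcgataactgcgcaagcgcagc
Rps15a: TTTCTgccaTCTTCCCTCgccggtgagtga
Rps10: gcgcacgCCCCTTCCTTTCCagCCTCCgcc
Rpl35: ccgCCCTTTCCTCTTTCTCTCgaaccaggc
Rps6: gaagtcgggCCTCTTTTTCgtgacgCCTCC
The lines lie at chrX:102189372-102189401 on the minus strand for Rps4x, chr10:80292421-80292450 on the plus strand for Rps15, chr7:118116128-118116157 on the minus strand for Rps15a, chr17:27635225-27635254 on the minus strand for Rps10, chr2:39005112-39005141 on the minus strand for Rpl35 and chr4:86857348-86857377 on the minus strand for Rps6. A C at the annotated start followed by 4 bases that are each C or T, searched on the RNA strand, stood at 15 of 81 annotated ribosomal protein gene starts (18.5%), against 823 of 32851 starts of all genes (2.51%) and 0 of 75 starts of mitochondrial ribosomal protein genes. A run of at least 7 such bases anywhere in the 30-base window was found at 44.4% of the ribosomal protein starts and 17.9% of all starts. These are matches to letters at annotated starts, and starts in use in these cells were not measured here.

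For each peak the authors' deposited tables give a fold enrichment, read here as how many fold m6A libraries exceeded input. They also give a difference as a log2 fold change with its false discovery rate (FDR), read as the difference in methylation between the genotypes. The genotype behind the enrichment is not stated. Reads behind a value were not analysed, so values resting on few reads or on a change in input could not be marked. A peak passed at an FDR of 0.05. The files do not state the sign, and negative values were read as likely lower in Mettl3-deleted cells, so that rose and fell below follow this likely direction. The basis is that the authors' deposited gene lists hold 5339 of 5343 genes with a negative iNKT peak and 0 of 1431 without one, and that the deletion removes a writer. For ribosomal protein genes the iNKT list held 12 of 12 with a negative peak and 0 of 16 without, and the DP list held 22 of 22 and 0 of 8. Values per library were not analysed here, so no spread between replicates can be set beside a value, and the FDR is the authors' own. In bulk cells, a change in every cell and a change in some of them cannot be told apart. Library depth is unknown. Among the markers, 7 of 7 iNKT genes had a peak in the iNKT table and 2 of 7 in the DP table. Of the DP genes, 5 of 8 had one in the DP table and 4 of 8 in the iNKT table, so the DP markers hardly separate the cell types. Mettl3 itself had no peak in either table, so the deletion could not be checked here.

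A peak named after a ribosomal protein gene did not always lie in it. In iNKT cells 27 of the 41 peaks lay in the named gene on its strand, where the strand was known, in 23 genes, and in DP cells 26 of 42 did, in 20 genes. Peaks in the genes below means these 27 and 26, since further peaks inside ribosomal protein genes that carry another name were not members. The other peaks lay in a neighbour or on the opposite strand. They include Dennd4c beside Rps6, Dipk1a around Rpl5, Rundc1 beside Rpl27, Lactb beside Rps27l and the signal recognition particle RNA gene Rn7s1 beside Rps29. A peak of their own in both tables was found for 6 genes, namely Rpl21, Rpl22, Rpl36al, Rpl5, Rps19bp1 and Rps6. No such count was made over all genes. A few members are not standard parts of the ribosome. Rps19bp1 binds Rps19, Rpl36al and Rps27l are paralogs, and Rps27rt is a further copy of Rps27. Ribosomal protein genes have many near-identical processed copies in the genome, and how the authors placed reads shared between copies is not given in the sources used here, so the origin of reads in any of these peaks is uncertain.

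In Mettl3-deleted iNKT cells, m6A peaks of ribosomal protein genes rose far more often than they fell, opposite to the balance over all peaks of the authors' deposited table. Of 41 peaks 15 rose (36.6%) and 3 fell (7.32%), beside 5.84% of all 12542 peaks that rose and 19.8% that fell. Every one of the 15 lay in the gene it is named after, so that 15 of the 27 peaks in the genes rose (55.6%) and 2 fell (7.41%). Of the 14 peaks elsewhere 0 rose and 1 fell at this FDR. At the authors' unadjusted p under 0.05, 1 was higher and 1 lower, beside 6.96% and 23.2% of all iNKT peaks. The median log2 fold change was 1.31 over the 41 peaks (quartiles -0.80 and 3.66) and 2.0 over the 27 peaks in the genes, against -0.98 over all peaks (quartiles -2.32 and 0.26). A negative log2 fold change was found for 36.6% of the ribosomal protein peaks and 68.6% of all peaks. All 15 risers changed at least 2-fold, with a range of 1.03 to 10.1 on the log2 scale and a median of 4.53. Ribosomal protein genes made up 2.05% of the 733 iNKT peaks that rose and 0.327% of all iNKT peaks. In this table the peaks in the genes were as enriched over input as peaks in general, with a median fold enrichment of 8.49 against 8.32, and shorter, with a median of 119 nt against 181 nt.

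**Figure D1:**
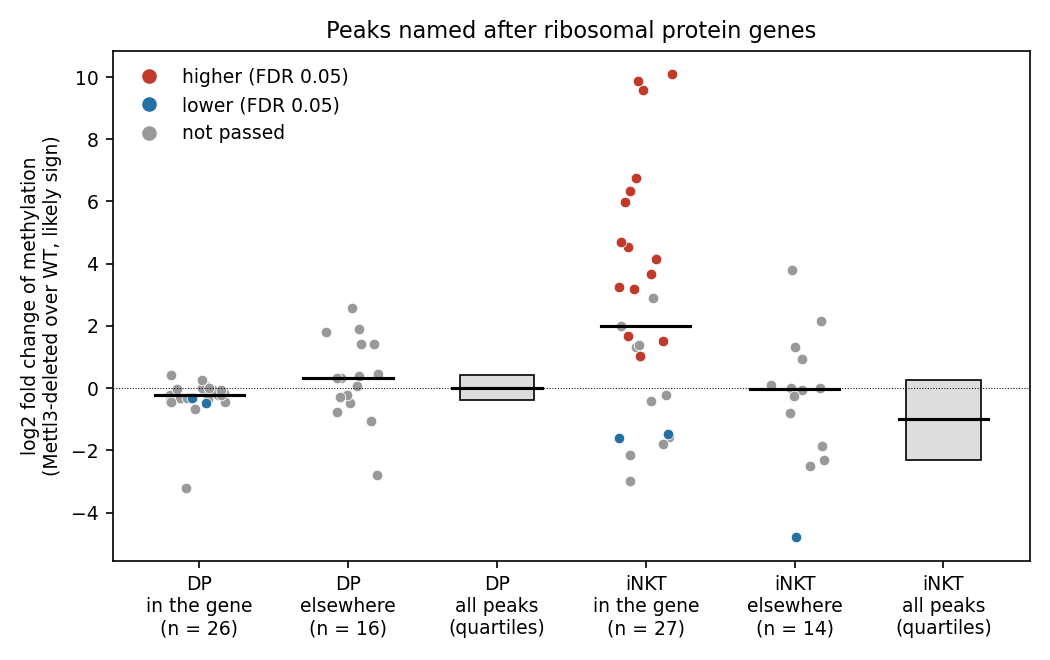
Log2 fold change of methylation (y axis, Mettl3-deleted over WT with the likely sign) of each peak named after a ribosomal protein gene in DP and iNKT cells, split by whether the peak lies in that gene. Points are peaks, horizontal lines are medians, and grey boxes give the quartiles of all peaks of the same table. The iNKT peaks in the genes have a median of 2.0 and reach 10.1, whereas all iNKT peaks have a median of -0.98.

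Among small-subunit genes 8 of 22 iNKT peaks rose (36.4%) and none fell. None was lower at the authors' unadjusted p under 0.05 either, where 23.2% of all iNKT peaks were lower. Within the genes 8 of 14 rose (57.1%), with a median log2 fold change of 3.05, against 1.84 over all 22. Rps4x, a small-subunit protein encoded on the X chromosome, had the largest rise of the group, by 10.1 on the log2 scale for a 5' UTR peak at chrX:102188290-102189394 per the authors' deposited table (FDR 1.3e-15, 8.49-fold enriched). Rps6 is the protein that S6 kinases phosphorylate when mTOR is active. Its first-exon peak at chr4:86856904-86856993 had a log2 fold change of 9.87 per the authors' deposited table (FDR 7.9e-29, 11.5-fold enriched). These values rank 9 and 17 among all 733 risers, so other genes rose as far.

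Rps14, a small-subunit protein whose reduced dose underlies a form of human anaemia, had the smallest FDR. Its spliced 5' UTR peak of 236 nt rose by 4.53 on the log2 scale at a log10 FDR of -434 per the authors' deposited table, the smallest value listed there, which 21 iNKT peaks share. A second Rps14 peak, also annotated 5' UTR, had a log2 fold change of -0.232 at an FDR of 0.6 per the authors' deposited table. The riser was 22.9-fold enriched and the other peak 3.34-fold.

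Rps2, which lines the entry of the messenger RNA channel, rose by 3.19 in its last exon at chr17:24721524-24721869 per the authors' deposited table (FDR 5e-69, 27.1-fold enriched). It was the only small-subunit riser outside the 5' UTR and first exon. The 5' UTR peak of Rps15, at chr10:80292453-80292704, rose by 4.69 per the authors' deposited table (FDR 5e-40) on a fold enrichment of only 2.30. The 5' UTR peak of Rps20, at chr4:3835485-3835665, rose by 4.16 per the authors' deposited table (FDR 5e-18). Rps29, a small zinc-binding protein, had the most enriched of the risers, 54.8-fold, and a smaller rise of 1.68 per the authors' deposited table (FDR 3.9e-06). The Rn7s1 peak named after Rps29, close to it on the other strand, was 86.2-fold enriched and had 3.81 at an FDR of 0.054 per the authors' deposited table, so it just missed.

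Rps15a had a pair of 5' UTR peaks with values of opposite sign, of which 1 passed. The inner one, 777 to 867 bases from the start, rose by 3.66 per the authors' deposited table (FDR 1.7e-05, 27.3-fold enriched). The one over the start itself had -1.81 at an FDR of 0.76 per the authors' deposited table, although it was 39.2-fold enriched. The lowest value of the small-subunit genes was that of Rps10, -3.00 at an FDR of 0.66 per the authors' deposited table. This spliced peak of 150 nt runs from -1385 to 52 bases relative to the annotated start, so most of its span lies before that start. Rps12 with 2.91 and Rps13 with 2.0 were positive and missed the threshold, with an FDR of 0.35 and 0.61 per the authors' deposited table. Values of that size thus stood on both sides of the threshold.

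Among large-subunit genes 7 of 19 iNKT peaks rose (36.8%) and 3 fell. Within the genes 7 of 13 rose (53.8%) and 2 fell, with a median log2 fold change of 1.39, against 0.09 over all 19. The rising shares of the subunits are thus close to each other, while all 3 falling peaks bore large-subunit names, and the difference was not tested. Rpl21 had a spliced 5' UTR peak at chr5:146833069-146833301 with a log2 fold change of 5.99 per the authors' deposited table (FDR 2.5e-83). Rpl13a is known in human cells also for a role off the ribosome, in silencing inflammatory messenger RNAs. Its first-exon peak at chr7:45127595-45127714 rose by 6.75 per the authors' deposited table (FDR 1.6e-55). The 5' UTR peak of Rpl34, at chr3:130729270-130729418, rose by 9.57 per the authors' deposited table (FDR 2e-39), the largest change of the large-subunit genes. Rpl9, with a 5' UTR peak at chr5:65390995-65391085, rose by 6.34 with the weakest support of the 15, an FDR of 0.0027 per the authors' deposited table.

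Rpl5 carries a small ribosomal RNA into the large subunit together with Rpl11, and with it can bind Mdm2 and so stabilise p53. Its spliced iNKT peak, annotated 3' UTR at chr5:107907159-107908018, rose by 1.5 per the authors' deposited table (FDR 1e-48). The acidic stalk proteins Rplp1 and Rplp2, which recruit elongation factors to the large subunit, had 1 riser each. The Rplp1 peak lay in the 5' UTR at chr9:61914483-61914542 and rose by 3.26 per the authors' deposited table (FDR 6.3e-30). The Rplp2 peak lay in the 3' UTR at chr7:141451289-141451378 and had the smallest rise of the 15, 1.03 per the authors' deposited table (FDR 0.00014). So the 2 risers in 3' UTRs, of Rpl5 and Rplp2, were also the 2 with the smallest changes among large-subunit genes.

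Both falling peaks that lay in the ribosomal protein gene they are named after were in 3' UTRs. Rpl41, which encodes a very short peptide, fell by 1.60 on the log2 scale at chr10:128548353-128548617 per the authors' deposited table (FDR 2.5e-37, 8.86-fold enriched). Its 5' UTR peaks did not pass, with 1.39 at an FDR of 0.071 and -1.58 at 0.76 per the authors' deposited table. Rpl22, which mouse alpha-beta T cells need for their development, fell by 1.48 at chr4:152332438-152332527 per the authors' deposited table (FDR 0.015, 4.17-fold enriched). The third falling peak, at chr11:101433495-101434152, is named after Rpl27 and lies in the last exon of Rundc1. It fell by 4.80 per the authors' deposited table (FDR 0.0054) and was the most enriched of all 41, at 87.5-fold. No ribosomal protein gene had passing peaks of both signs among the peaks that carry its name. In Rpl13a, however, 3' UTR peaks named after the small nucleolar RNA Snord35a fell, with -0.987 at an FDR of 4e-46 and -1.05 at 4e-36 per the authors' deposited table.

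**Figure D2:**
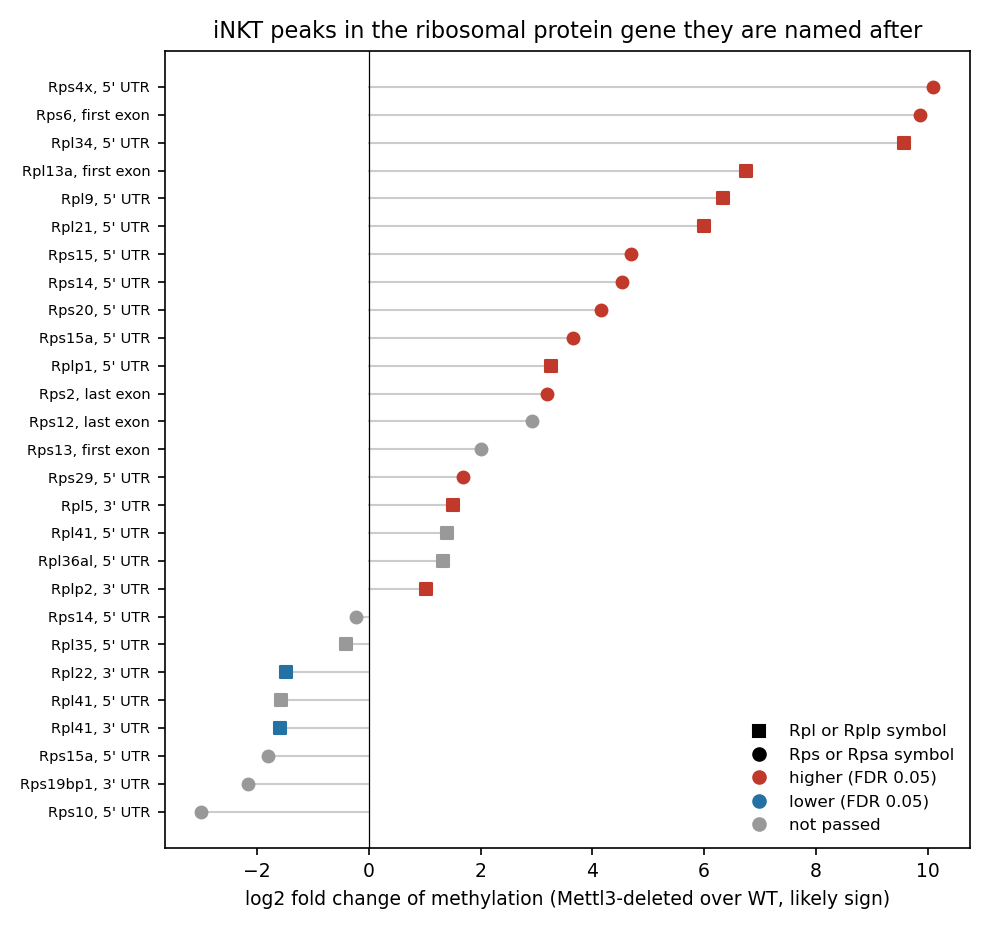
Log2 fold change of methylation (x axis, Mettl3-deleted over WT with the likely sign) of the 27 iNKT peaks that lie in the ribosomal protein gene they are named after, each with its annotated position. Squares are Rpl and Rplp symbols, circles are Rps symbols (Rps19bp1 is named for its partner and is not in the ribosome), and the 15 red points passed as higher, from Rplp2 at 1.03 to Rps4x at 10.1.

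The peaks were placed unlike others along the transcript. Of the 41 iNKT ribosomal protein peaks 43.9% were annotated 5' UTR, against 14.7% of all iNKT peaks, and 24.4% were annotated 3' UTR, against 45.2%. Internal exons held 7.32% of the ribosomal protein peaks, none of them in the named gene, and 18.8% of all peaks. In 5' UTRs 10 of 18 ribosomal protein peaks rose (55.6%) and none fell, whereas of all 1843 iNKT 5' UTR peaks 8.25% rose and 13.8% fell. At the authors' unadjusted p under 0.05, 11 were higher and none lower, beside 9.55% and 16.4% of all iNKT 5' UTR peaks. The median log2 fold change there was 2.47 for ribosomal protein genes and -0.64 for all 5' UTR peaks. By subunit, 6 of 9 small-subunit and 4 of 9 large-subunit 5' UTR peaks rose. With the first exon added, 12 of 20 peaks in the genes rose and none fell, with a median of 3.46, against 7.59% of all iNKT peaks of those classes that rose and 13.8% that fell. In the remaining classes 3 of 7 peaks in the genes rose and 2 fell, with a median of 1.03, beside 5.45% and 21.2% of all such peaks. In 3' UTRs 2 of 10 ribosomal protein peaks rose and 2 fell, beside 5.18% and 22.2% of all iNKT 3' UTR peaks. Ribosomal protein genes supplied 6.58% of the 152 iNKT 5' UTR peaks that rose, and 0.977% of all iNKT 5' UTR peaks.

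**Figure D3:**
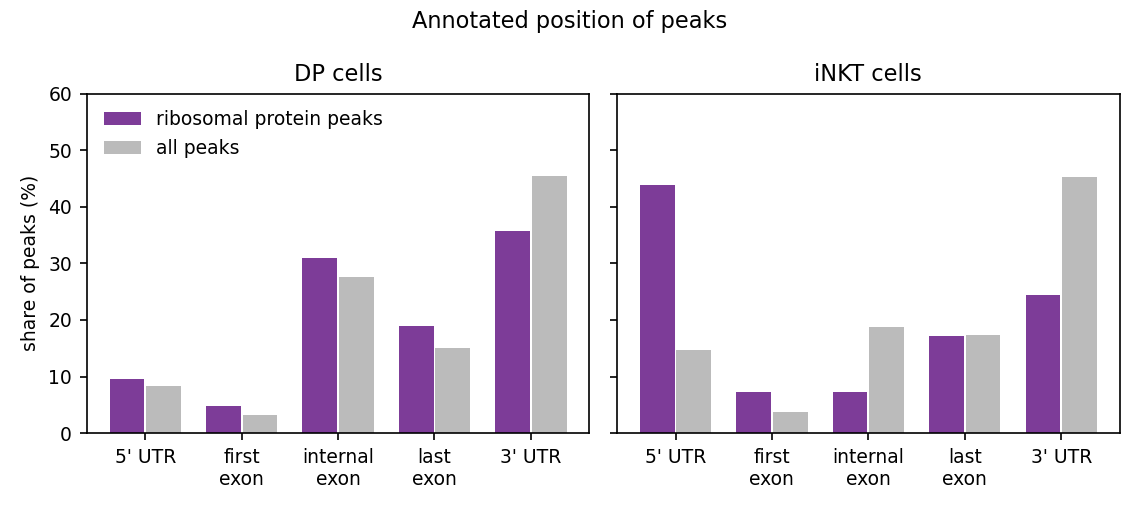
Share of peaks (y axis, percent) in each annotated position class for ribosomal protein peaks (purple) and all peaks (grey) in DP and iNKT cells. In iNKT cells 43.9% of ribosomal protein peaks and 14.7% of all peaks are annotated 5' UTR, and in DP cells the shares are 9.52% and 8.39%.

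An annotated 5' UTR did not always mean the start of the gene, where that start was known. It was not known for the 5' UTR risers of Rpl21, Rplp1, Rps14, Rps20 and Rps29. Of 21 iNKT peaks in the genes with a known start, 7 reached to within 50 bases of it. Of those, 2 rose (28.6%), Rps4x and Rps15, both spliced peaks that run into the gene. Beside this, 47.6% of the 21 and 8.25% of all iNKT 5' UTR peaks rose, and peaks of all genes near a start were not counted. Distances were taken from the outer ends of peaks, and the spliced Rps10 peak runs from -1385 to 52 bases. The other 5 of the 7 did not pass. Of these, Rps15a, Rps10 and Rpl35 have a C followed by 4 pyrimidines at the annotated start, and their values were -1.81, -3.00 and -0.415 per the authors' deposited table. Rpl36al with 1.32 and Rpl41 with -1.58 per the authors' deposited table lack it, as do Rps4x and Rps15. Rplp2, Rps6 and the inner peak of Rps15a rose away from a start that has it, so such a start was found on both sides of the threshold. The sequences of Rps10 and Rpl35 printed above carry the longest pyrimidine runs of the 6 shown. Other risers lay further in, counted along the genome with introns: Rpl34 at 919 to 1067 bases, Rpl13a at 1031 to 1150, Rpl9 at 346 to 436 and Rps6 at 374 to 463. Distances on the spliced RNA can be shorter and were not measured. In DP cells no peak in a ribosomal protein gene with a known start reached within 50 bases of it.

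**Figure D4:**
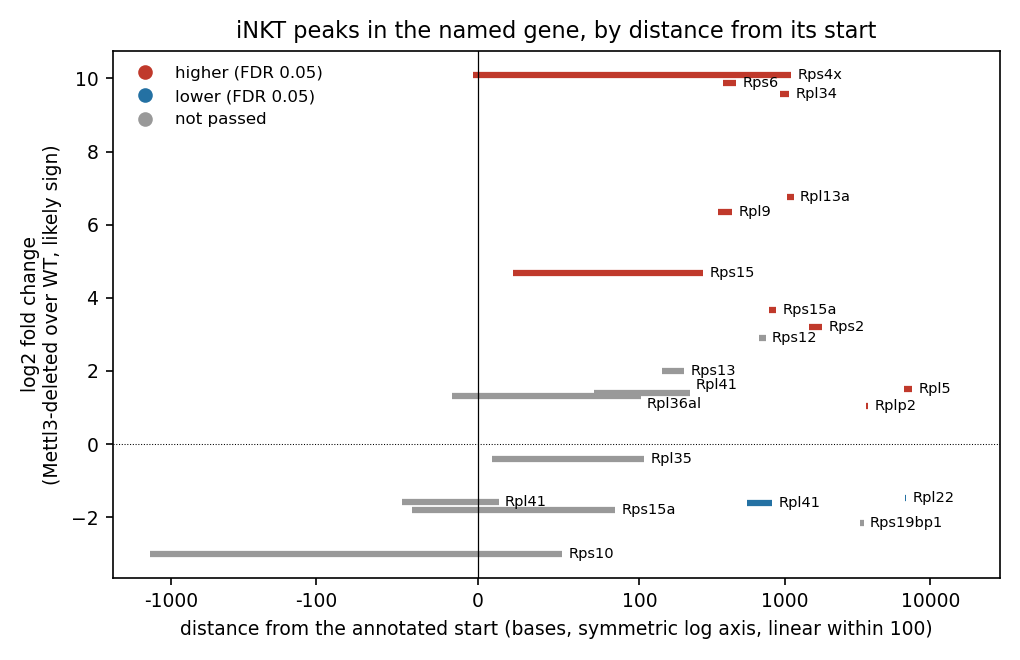
Log2 fold change of methylation (y axis, likely sign) against distance from the nearest annotated start (x axis, bases along the genome with introns, symmetric log scale) for the 21 iNKT peaks in the ribosomal protein gene they are named after, where its start is known. Each bar spans a peak from its first to its last base, red for higher, blue for lower and grey for not passed. Rps4x and Rps15 are the red bars among the 7 peaks within 50 bases of the start.

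In Mettl3-deleted DP thymocytes few of these peaks passed, and their changes were small. Of 42 ribosomal protein peaks 2 fell (4.76%) and none rose per the authors' deposited table, beside 0.743% of all 13450 DP peaks that fell and 0.483% that rose. At the authors' unadjusted p under 0.05, 10 were lower (23.8%) and 1 higher (2.38%), beside 6.50% and 6.18% of all DP peaks. Among the 26 peaks in the genes 21 had a negative log2 fold change (80.8%) with a median of -0.21 (quartiles -0.40 and -0.06), against 49.7% and a median of 0.00 over all DP peaks. Peaks of these genes were less enriched over input than others, with a median fold enrichment of 1.84 against 4.70 for all DP peaks. The 16 peaks in neighbours were 7.51-fold enriched at the median, had a median log2 fold change of 0.32, and none passed, with 1 lower and 1 higher at the unadjusted p.

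Both DP peaks that fell were in 3' UTRs of large-subunit genes. Rpl19 fell by 0.321 on the log2 scale for a peak over 3 exon blocks at chr11:98029440-98030434 per the authors' deposited table (FDR 4.4e-08, 1.47-fold enriched). Rpl12, which anchors the stalk to the ribosome, fell by 0.471 at chr2:32962601-32962811 per the authors' deposited table (FDR 0.023, 1.29-fold enriched). Neither change reached 2-fold, and both peaks stood close to input. The next values were the Rundc1 peak named after Rpl27, -2.78 at an FDR of 0.069, and Rps24, -0.308 at 0.081, per the authors' deposited table. Large-subunit names had 2 of 26 peaks lower and a median of -0.11, and small-subunit names 0 of 16 lower and a median of -0.25, with 2 lower and 0 higher at the unadjusted p. Within the genes the medians were -0.21 over 18 large-subunit peaks and -0.18 over 8 small-subunit peaks. The order of the subunits thus depends on the set taken.

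By annotated class, internal exons held 31.0% of the DP peaks named after ribosomal protein genes, 3' UTRs 35.7% and 5' UTRs 9.52%. Among the 26 of them in the genes the shares were 42.3%, 23.1% and 15.4%, against 27.6%, 45.5% and 8.39% of all DP peaks. The 11 internal-exon peaks in the genes had a median fold enrichment of 1.80, against 3.68 for all internal-exon DP peaks. The most enriched DP peak was named after Rps27l, a p53-induced paralog of Rps27, and lies in Lactb, with 31.5-fold per the authors' deposited table. Next came the peak in Rps19bp1 with 17.6-fold and a Tbc1d8 peak named after Rpl31 with 14.1-fold per the authors' deposited table. Rpl5 had 4 DP peaks, a pair of which lie in Dipk1a, and Rps6 had 3, a pair of which lie in Dennd4c. Most peaks per gene in iNKT cells were 3, for Rpl41, Rpl27, Rps29 and Rps6.

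The cell types shared few sites in these genes. Matching by at least 1 exonic base on the same strand paired 10 ribosomal protein peaks of each table, 23.8% of the DP peaks and 24.4% of the iNKT peaks, against 36.4% and 42.7% of all peaks. Of the peaks in the genes 3 were paired, 11.5% of the DP peaks and 11.1% of the iNKT peaks. Rpl22 had a log2 fold change of -1.48 in iNKT cells and 0.078 in DP cells (FDR 0.65) per the authors' deposited tables. Rpl5 had 1.5 in iNKT cells and 0.415 in DP cells (FDR 0.63) per the authors' deposited tables. Rps19bp1 had -2.16 in iNKT cells (FDR 0.36) and 0.258 in DP cells (FDR 0.65) per the authors' deposited tables. No ribosomal protein gene passed in both tables, but only 2 of their 42 DP peaks passed at all. Of all DP peaks 0.743% fell and 0.483% rose. How many of all genes passed in both was not counted, and the difference between cell types was not tested.

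Other gene lists around the ribosome had differing counts in iNKT cells, where 5.84% of all peaks rose and 19.8% fell. The list of other TOP and translation genes had 5 of 15 peaks higher (33.3%) and 1 lower (Nap1l1, a histone chaperone, with -6.27), with the 5' UTR peaks of Eef2, Pabpc1 and Eef1a1, an elongation factor, the poly(A)-binding protein and a further elongation factor, at 6.46, 2.71 and 11.3 per the authors' deposited table. Those 3 peaks were 1.53-fold, 5.92-fold and 3.92-fold enriched, against a median of 8.32 over all iNKT peaks, so the Eef2 peak stood close to input. The list of ribosome biogenesis genes had 21 of 49 peaks lower (42.9%) and 0 higher, and a median of -1.53. At the unadjusted p 1 of them was higher, beside 6.96% of all iNKT peaks. Lower was also the more frequent direction over all iNKT peaks. The smallest FDRs of that list were those of the nucleolar proteins Ncl with -3.88, Ubtf with -3.37 and Ddx21 with -4.44 per the authors' deposited table. Mitochondrial ribosomal proteins, which build the separate ribosome of that organelle, had 7 of 36 peaks lower (19.4%) and 3 higher (8.33%). Their median was -0.85, and these values are close to those of all peaks. In DP cells 1 of 24 TOP and translation peaks fell (4.17%), beside 0.743% of all DP peaks. It was that of Tpt1, which fell by 0.314 per the authors' deposited table. No peak of the biogenesis list (54 peaks) or the mitochondrial list (45 peaks) passed. At the unadjusted p they had 5 and 1 lower and 4 and 1 higher, beside 6.50% and 6.18% of all DP peaks. These are counts beside counts, and no test was made between lists.

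**Figure D5:**
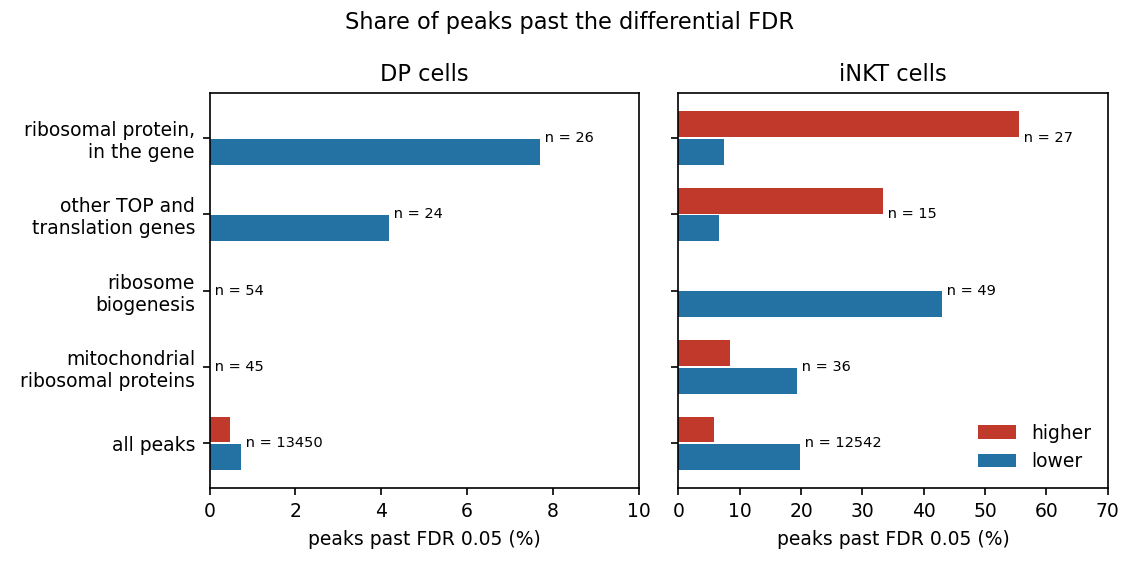
Share of peaks past an FDR of 0.05 (x axis, percent, with a different scale per panel) for peaks in ribosomal protein genes, 3 other gene lists and all peaks, in DP and iNKT cells. Red bars are higher and blue bars lower in Mettl3-deleted cells by the likely sign. Only the ribosomal protein list is limited to peaks in the named gene, and the other lists were taken by name alone. In iNKT cells 55.6% of the 27 ribosomal protein peaks in the genes are higher, or 36.6% of the 41 taken by name. The shares are 33.3% for other TOP and translation genes and 5.84% for all peaks.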

How the data were processed

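The study sequenced m6A immunoprecipitates and inputs of DP and iNKT cells of both genotypes. Build mm10, HOMER 4.9.1, STAR 2.6.0a, RSEM 1.3.0, Trim Galore 0.6.5 and FastQC 0.11.5 are listed, with no role, per the submitters' processing notes. The authors' deposited tables carry exomePeak in their names, and the column names are those of that package. How it was run is not given in the sources used here. Per the labels, polyadenylated RNA was cut to about 150 nt.

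Per the file headers, each of the authors' deposited tables gives a p-value per peak, its fold enrichment, and the log2 fold change of a difference. The enrichment was read here as the linear ratio of immunoprecipitate to input, and the difference as that between the genotypes. Per the file headers the deposited p and FDR values also stand as log10 values, read here as scores. Replicates were combined by the authors, so no value per library, depth or replicate spread was analysed here.

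Repeated rows were removed (5 for DP cells, 24 for iNKT cells). A peak passed at an FDR of 0.05. It counted as lying in its gene when it overlapped the RefSeq span on the gene's strand, where known (34 of 46 genes), and its annotated exon was of that gene. RefSeq matched 46 of 46 symbols. Lists were described by counts and medians beside all peaks, with no test of this work, and the counting was tested on simulated data. Genes were named by rule: passing peaks (up to 12 per direction in iNKT cells by FDR, with the remaining 3 risers added), the 3 most enriched peaks and the genes with most peaks. Those 3 risers (Rps15a, Rplp2 and Rpl9) and the peaks named that did not pass were singled out after their values were seen. The members and lists were chosen with earlier results of these data known. Alternatives were other FDR thresholds, a fold enrichment of at least 2, a change of at least 2-fold, 1 peak per gene and peaks in the named gene only. Calculations used pandas 2.3.3, numpy 2.4.6 and SciPy 1.17.1 under Python 3.11.15, and plots matplotlib 3.10.9. The markers of other cell types are not reported here.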

Additional observations from a re-analysis of the deposited data

How the results depend on the processing

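In iNKT cells, peaks that rose numbered 15 under every alternative tried except an FDR of 0.1, where they were 17. Those that fell numbered 2 or 3, and the median log2 fold change stayed between 1.17 and 2.0. The 2 falling DP peaks became 1 at an FDR of 0.01, 4 at an FDR of 0.1, 0 with a fold enrichment of at least 2 and 0 with a change of at least 2-fold. Those 2 peaks are 1.47-fold and 1.29-fold enriched and change less than 2-fold, which the last 2 settings require. The DP median stayed between -0.21 and -0.06, and no value changed sign. The number of ribosomal protein peaks per position class moved by over 1.5 times in 7 cases. With peaks in the named gene only, iNKT internal exons held 0 in place of 3 peaks, last exons 2 in place of 7 and 3' UTRs 5 in place of 10, and DP last exons held 3 in place of 8 and 3' UTRs 6 in place of 15. At a fold enrichment of at least 2, DP internal exons held 5 in place of 13 and first exons 0 in place of 2. No paired analysis was possible because the deposited tables combine the replicates of each genotype, and leaving out a replicate could not be run for the same reason. Depth per library is unknown, so the precision of single fold changes, such as those near 10 on the log2 scale, cannot be given.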

Other observations

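Several ribosomal protein genes hold small nucleolar RNAs (snoRNAs) in their introns, which guide chemical changes of ribosomal RNA, and the authors' annotation named some peaks in these genes after them. In the 69 ribosomal protein genes with a known strand, 11 iNKT peaks carried another name, 8 of them that of a snoRNA, and 5 DP peaks did, 2 of them that of a snoRNA. A spliced peak in Rpl37 named after Snord72 rose by 6.86 in Mettl3-deleted iNKT cells per the authors' deposited table (FDR 1e-12). Overlapping 3' UTR peaks in Rpl13a named after Snord35a fell, with -0.987 and -1.05 per the authors' deposited table (FDR 4e-46 and 4e-36), whereas the first-exon peak of that gene rose by 6.75. None of the 5 DP peaks passed, beside 0.743% of all DP peaks that fell and 0.483% that rose.

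The S6 kinases, which phosphorylate Rps6, had 2 of 13 iNKT peaks lower (15.4%) and 3 higher (23.1%), beside 19.8% and 5.84% of all iNKT peaks. Rps6kb2 had passing peaks of both signs, -3.11 and 3.42, per the authors' deposited table. Rps6ka1 rose by 5.63 and Rps6ka3 fell by 2.55 per the authors' deposited table. In DP cells 0 of 9 passed, beside 0.743% of all DP peaks that fell and 0.483% that rose. At the authors' unadjusted p under 0.05, 2 were lower and 1 higher, beside 6.50% and 6.18% of all DP peaks.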
